A study of Glycine max with 72 samples.

Results

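The stretch of soybean chromosome 11 around MIPS1 was examined gene by gene for differences between lines that carry the mutant allele mips1 and their normal sisters. Of the 56044 genes in the count tables, 383 have their smallest exon start within 2 Mb of the start of MIPS1 (Glyma.11G238800, Wm82.a2.v1 chromosome 11, 33319226 to 33322244, minus strand), with MIPS1 itself left out. They run from Glyma.11G218700 (chromosome 11, start 31336745), 1.98 Mb before MIPS1, to Glyma.11G257000 (start 34718715), 1.40 Mb after it and the last annotated gene of the chromosome, so the set reaches less far on that side. The next gene outwards, Glyma.11G218600, starts 2.00 Mb away and was not taken. Before MIPS1 lie 201 members and after it 182, with 186 on the plus and 197 on the minus strand. Distances below have a minus sign where the gene lies before MIPS1 in chromosome coordinates.

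RNA of seeds was sequenced from 8 lines at 3 stages of germination, in 3 replicates of 10 seeds each. Stage 1 was the dry seed, stage 2 the seed after 8 h of imbibition and stage 3 the seed with its radicle out; seed coats and radicles were taken off at stages 2 and 3. Both 1mlpa, which carries mips1, and its normal sister 1MWT, which carries MIPS1, come from Essex x V99-5089 and have normal MRP-L and MRP-N (the Mips subset). The other 6 lines come from CX-1834 x V99-5089: 3mlpa (mips1/mrp-l/mrp-n) and 3MWT (MIPS1/MRP-L/MRP-N) form the Mips-MRP subset, and 2mlpa (MIPS1/mrp-l/mrp-n), 2MWT (MIPS1/MRP-L/MRP-N), 2MWT-L (MIPS1/MRP-L/mrp-n) and 2MWT-N (MIPS1/mrp-l/MRP-N) form the MRP subset, in which every line has normal MIPS1. V99-5089 was the source of mips1 in both crosses, while the normal allele came from Essex in 1MWT and from CX-1834 in 3MWT and the MRP lines. Each line is a single genotype, so line and allele cannot be told apart within a subset. Sample names of 1mlpa and 1MWT are abbreviations that might also be read as the parents Essex and V99-5089, so these samples were assigned by the MIPS1 genotype in their labels.

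MIPS1 encodes myo-inositol-3-phosphate synthase, which turns glucose 6-phosphate into inositol phosphate, the start of the route to phytic acid. Phytic acid is the main phosphorus store of seeds and is moved into the vacuole by MRP-type ABC transporters, the products of MRP-L and MRP-N. When a line is selected for one allele in a cross, the neighbouring stretch of chromosome is inherited with it, and sister lines of opposite genotype can therefore carry different parental alleles of the surrounding genes. None of the phytic acid genes named in the study is among the members (0 of 383); the nearest, Glyma.11G218500, an inositol polyphosphate kinase gene (ITPK4), starts 2.01 Mb from MIPS1.

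Levels are given in CPM, read counts relative to the library total after TMM scaling of the 36 libraries in a count table; the MRP lines were in a table of their own, so levels of MRP lines and of the other lines were scaled separately. The total was 20295984 to 39759526 counts in 71 libraries, with a median of 28412327, and 12679 in replicate 1 of 2MWT-N at stage 2, whose values are left out where levels of that group are listed but which stayed in the tests. Counting does not tell the alleles of MIPS1 apart. Its RNA at stage 1 was 1173, 537 and 469 CPM in 1mlpa, against 179, 81.2 and 117 CPM in 1MWT, and 321, 153 and 457 CPM in 3mlpa, against 99.2, 94.7 and 280.1 CPM in 3MWT; it was higher in 1mlpa (log2 fold change 2.5 ± 0.33, adjusted p = 3.53e-05), while the Mips-MRP difference at that stage missed the threshold (adjusted p = 0.112). As a check of the tissue, 4 storage protein genes named in the study had a summed level of 207 to 18719 CPM (median 570.1) at stage 1, 122 to 6613 CPM (median 414) at stage 2 and 46.9 to 478 CPM (median 107) at stage 3, over 24 libraries per stage with the near-empty one included, and 2 of the 4 were at 0 in some library. How far differences in seed composition entered the results was not tested, and in such bulk samples fewer cells of a type and less RNA per cell cannot be told apart.

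The members differed widely in activity. In the Mips fit 252 had a mean normalized count over 10 and were tested, in the Mips-MRP fit 248 and in the MRP fit 245, and 127 passed in none of these fits or in the joint fit of the 36 libraries of the first 2 subsets. No read was counted for 16 members, and 43 never exceeded 3 counts in a library. Averaged over 1MWT and 3MWT, 91 of the 252 tested members were highest in the dry seed, 47 after imbibition and 114 after radicle emergence. Glyma.11G226000, at -1.19 Mb, is a dry-seed example: it had 797, 576 and 587 CPM in 1MWT at stage 1, 297, 224 and 283 CPM at stage 2 and 70.4, 50.8 and 55.2 CPM at stage 3 (its span overlaps Glyma.11G226100, and reads were counted without strand). Glyma.11G252200, at 1.01 Mb, ran the other way, with 142, 180.0 and 130.4 CPM in 1MWT at stage 1, 137, 156 and 125 CPM at stage 2 and 392, 379 and 372 CPM at stage 3. In dry seeds it had 91.7, 98.9 and 109 CPM in 3mlpa, against 226, 270.2 and 264 CPM in 3MWT (log2 fold change -1.34 ± 0.19, adjusted p = 0.00038 by the test described next). This difference missed the threshold when only the libraries of these lines at that stage were fitted. Glyma.11G231000, also among the most abundant members, had 1171, 303 and 423 CPM in 1MWT at stage 1, 144, 77.9 and 145 CPM at stage 2 and 68.3, 66.7 and 59.1 CPM at stage 3, and no mips1 line was called different from its sister.

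In the Mips subset, 44 of 252 tested members (17.5%) differed between 1mlpa and 1MWT at 1 or more stages, against 13.7% of all genes tested. A gene was called here when edgeR's quasi-likelihood test gave a Benjamini-Hochberg adjusted p under 0.01 over all genes and the log2 fold change exceeded 1 in size, the thresholds of the study. The dry seed held most of them: 34 members were called at stage 1 (background 8.37%), 14 at stage 2 (3.55%) and 13 at stage 3 (4.85%). Over all stages 26 were higher in 1mlpa (background 8.35%) and 19 lower (5.45%), 1 of them in both directions. In 1mlpa 18 members were higher and 16 lower at stage 1 (background 4.34% and 4.03%), 8 were higher and 6 lower at stage 2 (1.98% and 1.57%), and 11 were higher and 2 lower at stage 3 (4.21% and 0.641%). The median log2 fold change of the tested members was -0.06, -0.05 and -0.04 at stages 1, 2 and 3, beside -0.03, -0.03 and -0.04 for all genes. At each stage the 3 replicates of 1mlpa and those of 1MWT did not overlap for any called member (34, 14 and 13 of them). Called or not, 85, 100 and 131 of the 252 tested members had no overlap at stages 1, 2 and 3, so separation alone was common among members. The same share over all genes was not taken, so these counts cannot set the interval apart from other genes.

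In the Mips-MRP subset, 29 of 248 tested members (11.7%) differed between 3mlpa and 3MWT, against 7.19% of all genes. Here the calls fell at both ends of germination, with 17 at stage 1 (background 3.95%), 2 at stage 2 (0.795%) and 17 at stage 3 (3.64%). Over all stages 22 were higher in 3mlpa (background 5.37%) and 8 lower (1.87%). By stage, 11, 1 and 14 members were higher (2.79%, 0.371% and 2.89%) and 6, 1 and 3 lower (1.17%, 0.425% and 0.754%). The median log2 fold change of the tested members was 0.14, -0.01 and -0.06 at stages 1, 2 and 3, beside 0.15, -0.01 and -0.07 for all genes. The count rests strongly on replicate 2 of 3mlpa at stage 1: without it 52 of 249 members were called (20.9%), and the share over all genes was 17%, so members and background moved up together. At FDR under 0.05 the count was 46, and DESeq2 at the main thresholds gave 44. The shares over all genes under these settings were not taken.

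**Figure D1:**
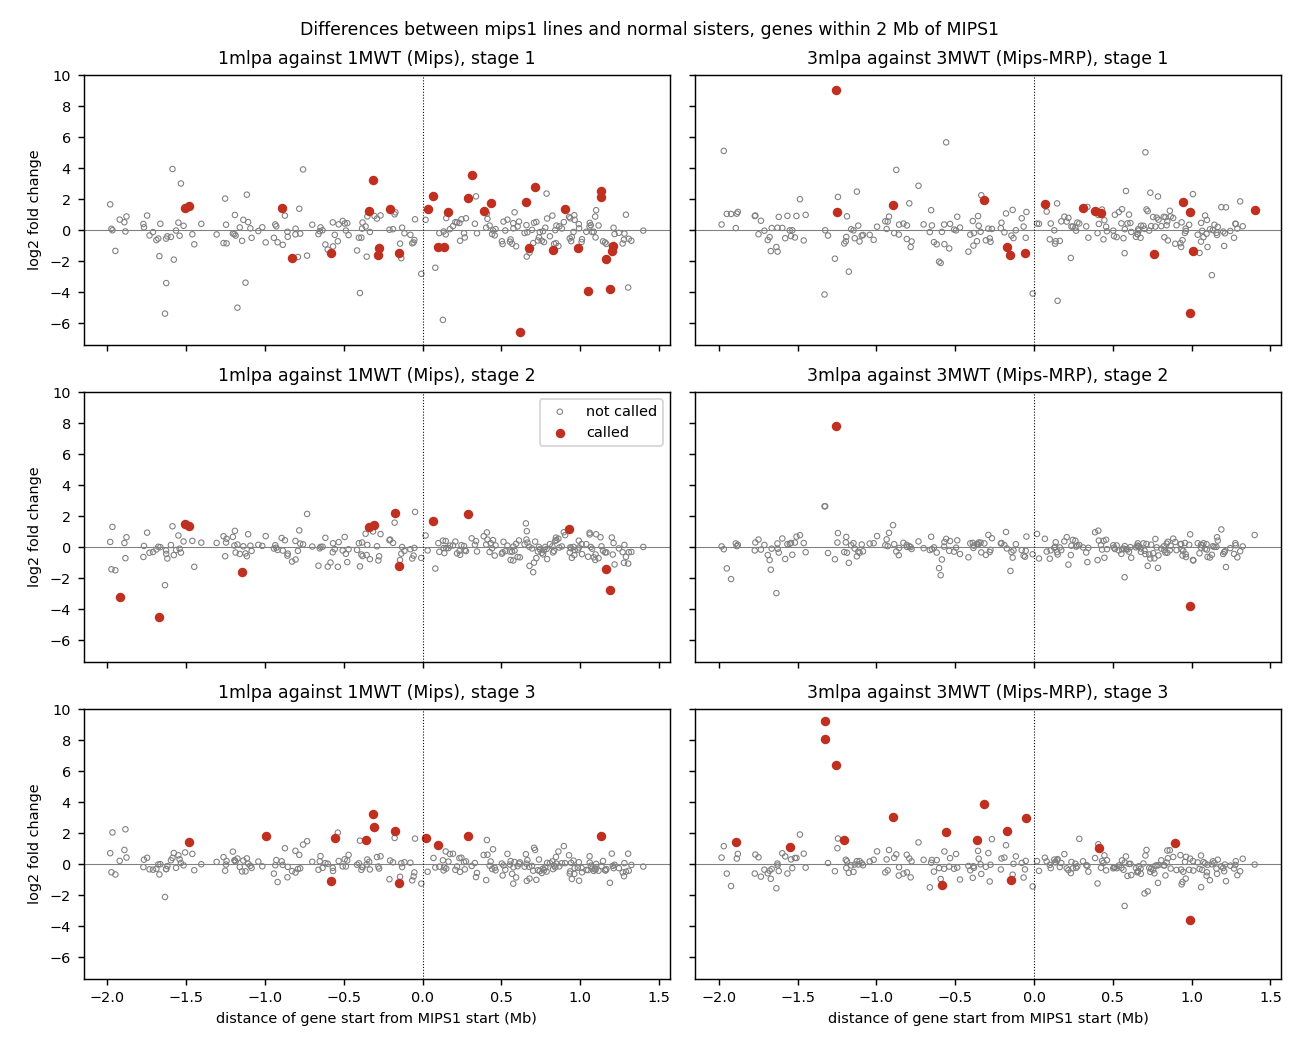
Log2 fold change (vertical axis) of every tested member against the distance of its start from the MIPS1 start in Mb (horizontal axis, dotted line at 0), for 1mlpa against 1MWT on the left and 3mlpa against 3MWT on the right, with a row for each stage. Filled points are called members (34, 14 and 13 from top to bottom on the left, 17, 2 and 17 on the right) and lie on both sides of MIPS1 among open points that were not called.

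Called members were not spread evenly over the interval. In the Mips subset, 19 of 74 tested members (25.7%) within 0.5 Mb of MIPS1 were called at 1 or more stages, then 13 of 91 (14.3%) at 0.5 to 1 Mb, 9 of 57 (15.8%) at 1 to 1.5 Mb and 3 of 30 (10.0%) at 1.5 to 2 Mb, beside the 13.7% of all genes. The nearest class was above that share on both sides, with 9 of 37 before MIPS1 and 10 of 37 after it. Genes 2 to 5 Mb before MIPS1, outside the interval, had 17 of 88 called (19.3%), and the rest of the chromosome 171 of 1251 (13.7%). In the Mips-MRP subset the nearest class had 12 of 72 called (16.7%), with 7 of 35 before and 5 of 37 after MIPS1. The classes further out had 8 of 91 (8.79%), 7 of 57 (12.3%) and 2 of 28 (7.14%), beside 7.19% of all genes. Without replicate 2 of 3mlpa at stage 1 the nearest class had 21 of 72 called (29.2%), against 17% of all genes. These shares are descriptions; neighbouring genes share a stretch of chromosome, and no test of their order was made.

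**Figure D2:**
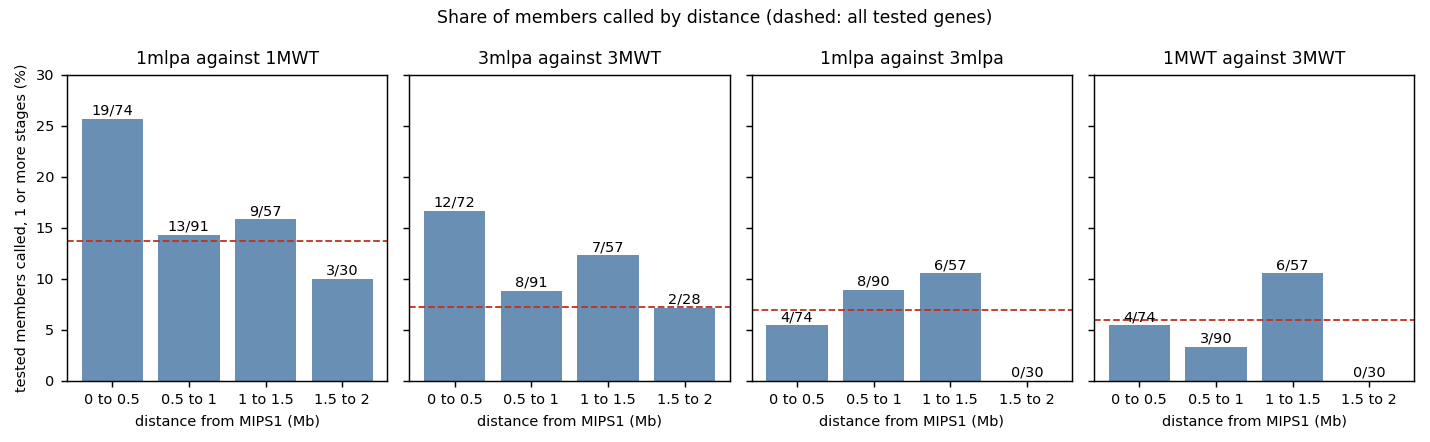
Share of tested members called at 1 or more stages (vertical axis, %) by distance from MIPS1 in Mb (horizontal axis), with the number called and tested above each bar and the share over all tested genes as a dashed line. In the 2 comparisons of mips1 lines with their normal sisters the bar nearest to MIPS1 is the tallest (25.7% and 16.7%). In the comparisons across the crosses it lies close to the dashed line, with 4 of 74 called in each (5.41%). The dashed line stands at 6.9% for 1mlpa against 3mlpa and at 5.98% for 1MWT against 3MWT.

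When the 2 crosses were set side by side, 10 members were called at the same stage in both, out of 245 tested in both (2.52% of all genes tested in both were called so). In the mips1 lines 8 were higher and 2 lower in both crosses. Within 0.5 Mb of MIPS1 lie 7 of them, where 74 members were tested in the Mips and 72 in the Mips-MRP subset. The split into higher and lower over all genes called in both crosses was not taken. In the single comparisons, stage 3 calls over all genes were mostly higher (Mips 4.21% higher and 0.641% lower, Mips-MRP 2.89% and 0.754%). One direction in both crosses was the rule over all genes called in both, with 238 of 257 genes at stage 1, 49 of 50 at stage 2 and 528 of 528 at stage 3, out of 30687 tested. Of the 11 combinations of member and stage, 6 were at stage 1 and 5 at stage 3. All 6 dry-seed members lost the Mips-MRP call when only the libraries of the 2 lines at that stage were fitted (own libraries alone). Glyma.11G243000 then lost its Mips call too. The 5 stage 3 combinations kept both calls in such fits. The 2 comparisons share no library. At 1 of the 11, Glyma.11G242200 in the dry seed, the size of the difference was called unequal between the crosses. Over all 245 members the log2 fold changes of the 2 comparisons had Pearson correlations of 0.20, 0.28 and 0.56 over stages 1 to 3 (Spearman 0.20, 0.37 and 0.59), beside 0.12, 0.41 and 0.64 for the 30442 other genes; the points are genes, share depth and libraries within a comparison, and are not replicates. A further 34 members were called in the Mips subset alone and 19 in the Mips-MRP subset alone, which does not show that those effects differ.

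Glyma.11G237000, 0.15 Mb before MIPS1, was lower in both mips1 lines. At stage 1 it had 10.2, 7.89 and 7.88 CPM in 1mlpa, against 28.4, 18.7 and 21.4 CPM in 1MWT (log2 fold change -1.44 ± 0.21, adjusted p = 8.25e-05). In the other cross the same stage gave 11.7, 4.25 and 11.3 CPM in 3mlpa, against 26.6, 30.6 and 22.4 CPM in 3MWT (log2 fold change -1.57 ± 0.31, adjusted p = 0.00415). The replicates of mutant and sister did not overlap in either cross at any stage. In 1mlpa it was called at all 3 stages, with 3.24, 3.55 and 3.97 CPM in 1mlpa against 9.68, 6.55 and 8.57 CPM in 1MWT at stage 2 (log2 fold change -1.19) and 4.11, 3.4 and 3.13 CPM against 7.39, 8.94 and 8.68 CPM at stage 3 (-1.23). In 3mlpa the later stages had log2 fold changes of -1.52 ± 0.31 and -1.06 ± 0.30 that missed the threshold (adjusted p = 0.0116 and 0.0351). The 4 MRP lines, all with normal MIPS1, had 25.8 to 46.8 CPM at stage 1, and 2mlpa was called different from none of the 3 others.

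Glyma.11G235000, at -0.32 Mb, showed the largest shared rise after radicle emergence. At stage 3 it had 13.5, 13 and 27.2 CPM in 1mlpa, against 0.800, 1.77 and 3.20 CPM in 1MWT (log2 fold change 3.22 ± 0.43, adjusted p = 8.50e-05). In the other cross it had 41.8, 33.7 and 28.8 CPM in 3mlpa, against 1.85, 3.08 and 2.17 CPM in 3MWT (log2 fold change 3.87 ± 0.28, adjusted p = 1.25e-07). No replicate of a mips1 line came near its sister's range in either cross. The gene was also higher in the dry seed, with 11.1, 11.4 and 5.07 CPM in 1mlpa, against 0.270, 0.913 and 1.43 CPM in 1MWT (log2 fold change 3.24 ± 0.52, adjusted p = 0.000209), and 3.70, 6.23 and 5.64 CPM in 3mlpa, against 1.53, 1.43 and 1.04 CPM in 3MWT (log2 fold change 1.96 ± 0.30, adjusted p = 0.000606). After imbibition it had 32.6, 23.5 and 31.8 CPM in 1mlpa, against 15.7, 13 and 15 CPM in 1MWT, again without overlap, but the log2 fold change of 1.02 ± 0.39 missed the threshold (adjusted p = 0.093), and in the other cross the ranges overlapped (log2 fold change 0.25 ± 0.25, adjusted p = 0.772).

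Glyma.11G239400, 0.07 Mb after MIPS1, has as Arabidopsis homolog a PLAT/LH2-domain protein (AT2G22170), a family linked to stress responses in that species. In the dry seed it had 3241, 2139 and 1985 CPM in 1mlpa, against 698, 466 and 414 CPM in 1MWT (log2 fold change 2.19 ± 0.33, adjusted p = 0.000129). In the other cross it had 1989, 832 and 2816 CPM in 3mlpa, against 717, 550.5 and 505 CPM in 3MWT (log2 fold change 1.67 ± 0.37, adjusted p = 0.00792). The ranges did not overlap in either cross, but the Mips-MRP call was lost in 14 of 18 fits that left out 1 library. The difference was still present in 1mlpa after imbibition, with 536, 376 and 382 CPM against 174, 65.5 and 167 CPM in 1MWT (log2 fold change 1.68 ± 0.32, adjusted p = 0.00241), and at stage 3 the values were 127, 131 and 151 CPM in 1mlpa and 127, 93.2 and 89.4 CPM in 1MWT (adjusted p = 0.477).

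Glyma.11G242200, at 0.31 Mb, is one of 2 members that the study treats as network regulators. Its Arabidopsis homolog is ATHB6 (AT2G22430), a homeodomain leucine zipper factor that acts as a negative regulator of abscisic acid responses there. It had 92.9, 89.5 and 59.5 CPM in 1mlpa, against 6.11, 6.39 and 7.52 CPM in 1MWT in the dry seed, the member with the smallest adjusted p of the Mips comparison (log2 fold change 3.55 ± 0.21, adjusted p = 3.45e-09). The other cross gave 39.2, 56.8 and 39.3 CPM in 3mlpa, against 13.2, 21.4 and 14.4 CPM in 3MWT (log2 fold change 1.47 ± 0.22, adjusted p = 0.000541). Both mutants lay above their sisters without overlap, and the 2 differences were themselves unequal (interaction log2 difference 2.12 ± 0.28, adjusted p = 9.47e-06). The normal lines also differed, 1MWT being lower than 3MWT with a log2 fold change of -1.29 ± 0.20 (adjusted p = 4.83e-05). This call, the Mips-MRP call and the interaction call were lost with their own libraries alone. By radicle emergence all 4 lines stood between 179.9 and 239 CPM and neither comparison was called.

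**Figure D3:**
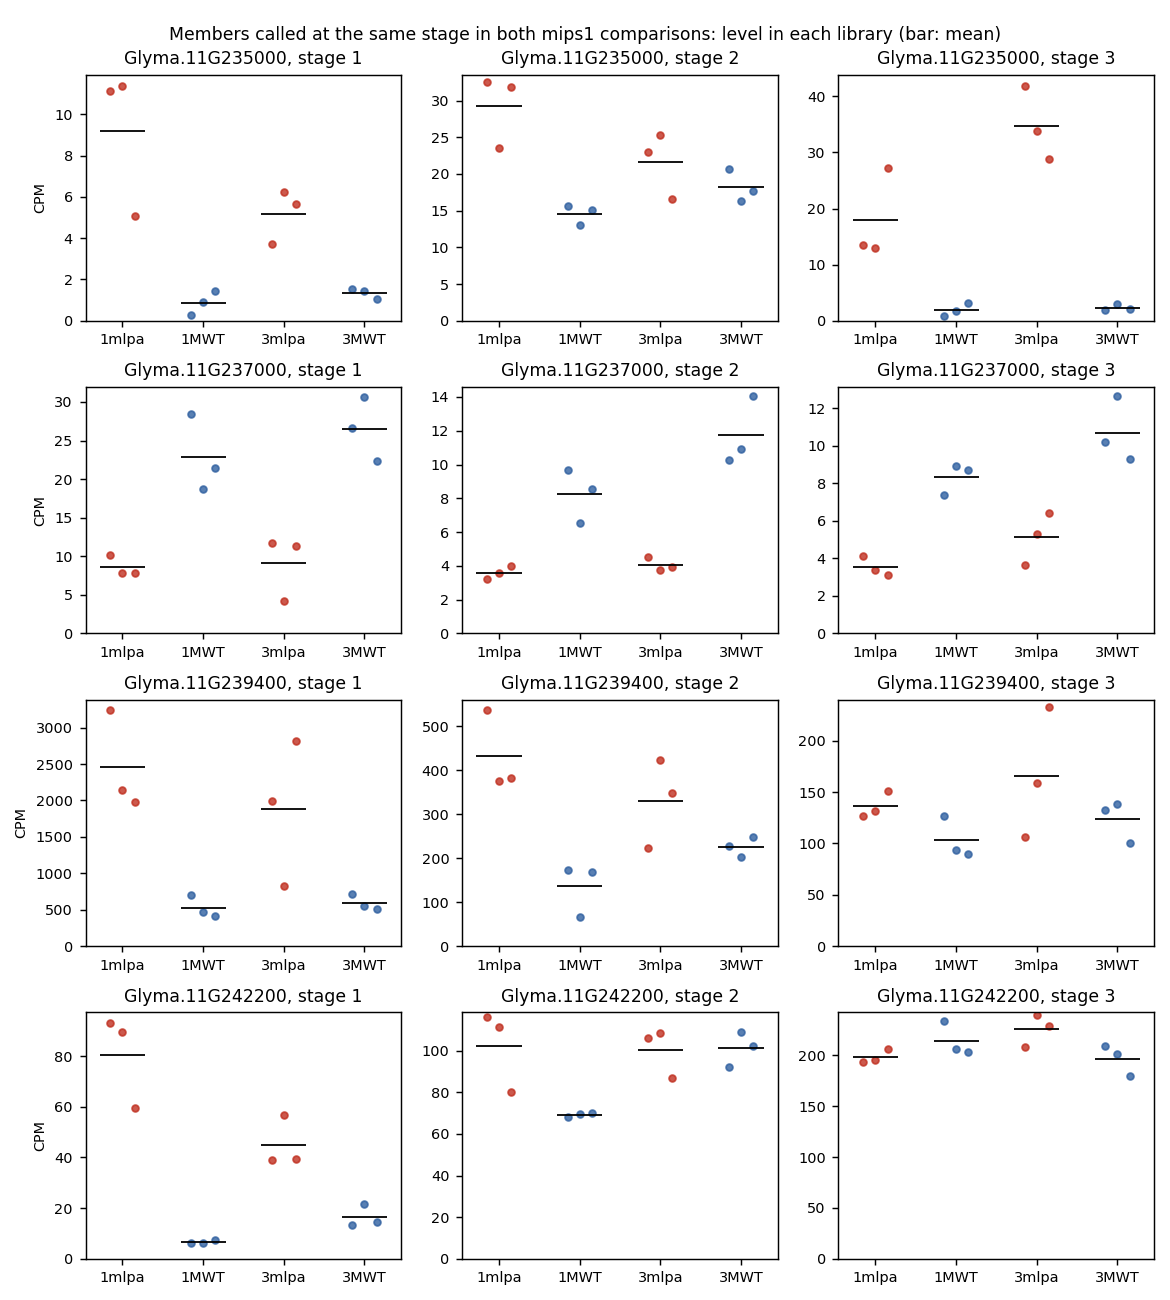
CPM (vertical axis, from 0) of 4 members called at the same stage in both crosses, with a row for each gene and a column for each stage; points are the 3 libraries of a line, red for mips1 lines and blue for normal lines, and the bar is their mean. Glyma.11G237000 lies lower in both mips1 lines at every stage, while the other 3 lie higher in both at stage 1, and Glyma.11G235000 again at stage 3.

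The other 6 shared members split by stage. In the dry seed Glyma.11G228900 (-0.89 Mb) and Glyma.11G243000 (0.39 Mb) were higher in both mips1 lines. Glyma.11G243000, whose Arabidopsis homolog AT1G12990 is annotated as an N-acetylglucosaminyltransferase, had 12.8, 18.5 and 12.6 CPM in 1mlpa, against 3.95, 6.0 and 7.82 CPM in 1MWT (log2 fold change 1.25 ± 0.25, adjusted p = 0.00139). It had 16.8, 10.4 and 14.9 CPM in 3mlpa, against 4.89, 6.59 and 6.06 CPM in 3MWT (log2 fold change 1.25 ± 0.26, adjusted p = 0.00484). Glyma.11G228900 had 56.5, 43.0 and 35.8 CPM in 1mlpa, against 15.7, 15.8 and 18.1 CPM in 1MWT (log2 fold change 1.41 ± 0.22, adjusted p = 0.000192), and 52.2, 47.1 and 29.6 CPM in 3mlpa, against 15.1, 14.3 and 12.2 CPM in 3MWT (log2 fold change 1.64 ± 0.30, adjusted p = 0.00232). No ranges overlapped. By stage 3 this gene had parted ways in the 2 crosses: 1.43, 1.63 and 0.931 CPM in 1mlpa, against 1.37, 1.13 and 1.01 CPM in 1MWT, but 4.24, 6.81 and 8.48 CPM in 3mlpa, against 1.21, 0.516 and 0.666 CPM in 3MWT, and the log2 fold changes of 0.19 and 3.03 differed from each other (adjusted p = 9.52e-05).

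After radicle emergence Glyma.11G232200, Glyma.11G234300 and Glyma.11G236600 were higher in both mips1 lines and Glyma.11G231700 was lower. Glyma.11G232200 (-0.56 Mb) is homologous to Arabidopsis MRH1 (AT4G18640), a receptor-like kinase needed for root hair growth there. It had 9.88, 8.32 and 15 CPM in 1mlpa, against 3.13, 2.90 and 4.30 CPM in 1MWT (log2 fold change 1.69 ± 0.29, adjusted p = 0.000815). It had 14.0, 14.2 and 15.9 CPM in 3mlpa, against 3.43, 2.65 and 4.35 CPM in 3MWT (log2 fold change 2.08 ± 0.28, adjusted p = 0.000131). Between lines with normal MIPS1, it was higher in 2mlpa than in 2MWT-L at stage 1 (log2 fold change 3.08 ± 0.79, adjusted p = 0.00623). That call was lost in 5 of 36 fits that left out 1 library and with its own libraries alone. Glyma.11G234300 (-0.36 Mb) gave nearly the same log2 fold change in both crosses, 1.59 ± 0.22 and 1.55 ± 0.20. Its levels were 96.6, 95.0 and 144 CPM in 1mlpa, against 37.3, 33.2 and 41.6 CPM in 1MWT, and 119, 146 and 138 CPM in 3mlpa, against 46.2, 45.7 and 45.9 CPM in 3MWT.

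Glyma.11G236600 (-0.17 Mb) corresponds to Arabidopsis RHA2A (AT1G15100), a RING-type ubiquitin ligase that takes part in abscisic acid signalling. At stage 3 it had 5.88, 7.80 and 11.7 CPM in 1mlpa, against 1.74, 1.19 and 2.81 CPM in 1MWT (log2 fold change 2.14 ± 0.40, adjusted p = 0.00146). The other cross had 17.7, 20.4 and 22.1 CPM in 3mlpa, against 4.74, 4.49 and 4.58 CPM in 3MWT (log2 fold change 2.12 ± 0.22, adjusted p = 6.49e-06). Earlier in germination the 2 crosses gave different values. In the dry seed it had 68.5, 76.5 and 49.1 CPM in 1mlpa, against 19.8, 21.6 and 43.3 CPM in 1MWT (1.16 ± 0.38 on the log2 scale, adjusted p = 0.0327), whereas 25.6, 30.2 and 27.6 CPM in 3mlpa lay below 47.3, 77.5 and 48.1 CPM in 3MWT (log2 fold change -1.05 ± 0.22, adjusted p = 0.0048). This last call was lost in 3 of 18 fits that left out 1 library and with the replicate number as a block. It was also lost in the fit of 36 libraries (adjusted p = 0.0211) and with its own libraries alone (adjusted p = 0.244). The interaction was called at stages 1 and 2 (log2 difference 2.24 ± 0.46 and 2.28 ± 0.46, adjusted p = 0.0016 and 0.00588). Between lines with normal MIPS1, Glyma.11G236600 was higher in 2mlpa than in 2MWT-L at stage 2 (log2 fold change 2.25 ± 0.44, adjusted p = 0.000747). Glyma.11G231700 (-0.58 Mb) had 2.97, 2.15 and 1.97 CPM in 1mlpa, against 4.33, 4.85 and 5.64 CPM in 1MWT (log2 fold change -1.06 ± 0.25, adjusted p = 0.00817, a call lost in 8 of 18 fits that left out 1 library and with RLE size factors), and 2.74, 3.20 and 1.73 CPM in 3mlpa, against 7.10, 5.67 and 6.68 CPM in 3MWT (log2 fold change -1.34 ± 0.23, adjusted p = 0.00105).

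The 10 tested members nearest to MIPS1, 5 on each side, start between -0.07 and 0.10 Mb from it. Of these 4 were called in the Mips subset (13.7% of all genes) and 3 in the Mips-MRP subset (7.19% of all genes). The closest tested gene after MIPS1, Glyma.11G239000 (0.02 Mb), is an EIN3-like transcription factor gene and the other network regulator of the study; factors of this family carry ethylene signals. At stage 3 it had 13.2, 11 and 13.8 CPM in 1mlpa, against 3.57, 3.0 and 5.03 CPM in 1MWT (log2 fold change 1.71 ± 0.27, adjusted p = 0.000378). In the other cross the values overlapped, with 11.4, 18.7 and 21.3 CPM in 3mlpa, against 11.8, 17.7 and 15.1 CPM in 3MWT (log2 fold change 0.20, adjusted p = 0.77). The 2 normal lines were also unequal at stage 3, 1MWT being lower than 3MWT (log2 fold change -1.94 ± 0.31, adjusted p = 8.07e-05).

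Glyma.11G239200 (0.03 Mb) was higher in 1mlpa dry seeds, with 3.74, 5.88 and 4.21 CPM in 1mlpa, against 1.44, 1.69 and 1.99 CPM in 1MWT (log2 fold change 1.39 ± 0.24, adjusted p = 0.000423). Glyma.11G239700 (0.10 Mb) differed in opposite directions early and late in germination. It had 4.04, 3.68 and 5.85 CPM in 1mlpa, against 7.91, 9.97 and 9.56 CPM in 1MWT in the dry seed (log2 fold change -1.05 ± 0.19, adjusted p = 0.000577). After radicle emergence it had 26.6, 22.5 and 26.6 CPM in 1mlpa, against 10.7, 10.7 and 10.5 CPM in 1MWT (log2 fold change 1.25 ± 0.17, adjusted p = 9.16e-05). On the other side, Glyma.11G238100 (-0.06 Mb) had 4.89, 6.78 and 4.70 CPM in 3mlpa, against 18, 13.4 and 13.7 CPM in 3MWT in the dry seed (log2 fold change -1.45 ± 0.21, adjusted p = 0.000386). That call was lost with its own libraries alone. In 1mlpa the log2 fold change of -0.78 ± 0.18 (adjusted p = 0.00402) was below the fold threshold. Glyma.11G238300 (-0.05 Mb) had 1.38, 1.49 and 2.94 CPM in 3mlpa, against 0.179, 0.241 and 0.294 CPM in 3MWT at stage 3 (log2 fold change 3.01 ± 0.67, adjusted p = 0.00778), a call lost in 10 of 18 fits that left out 1 library. For the remaining 4, Glyma.11G237900, Glyma.11G238200, Glyma.11G238700 and Glyma.11G239600, no mips1 line was called different from its sister.

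Outside the shared set, Glyma.11G223200 (-1.49 Mb) and Glyma.11G242100 (0.29 Mb) were called at all 3 stages in the Mips subset, as was Glyma.11G237000 above (3 of 252; 0.505% of all genes). Both were higher in 1mlpa throughout. Glyma.11G223200 had 182, 176 and 234 CPM in 1mlpa, against 57.4, 66.5 and 97.9 CPM in 1MWT at stage 3 (log2 fold change 1.42 ± 0.25, adjusted p = 0.000886), with log2 fold changes of 1.54 and 1.38 at stages 1 and 2. The values of 3mlpa were also above those of 3MWT there (87.6, 167 and 156 CPM against 32.4, 36.4 and 39.7 CPM), short of the threshold (adjusted p = 0.0375). Glyma.11G242100 had 117, 62.6 and 64.6 CPM in 1mlpa, against 26.6, 11 and 18.7 CPM in 1MWT in the dry seed (log2 fold change 2.09 ± 0.31, adjusted p = 0.000106), and log2 fold changes of 2.13 and 1.85 later. In 3mlpa and 3MWT its dry-seed values overlapped, with 61.5, 19.7 and 116 CPM in 3mlpa and 29.7, 74.6 and 39.9 CPM in 3MWT. Both genes also differed among MRP lines, which all have normal MIPS1. Glyma.11G223200 was higher in 2mlpa than in 2MWT-L at all 3 stages (log2 fold change 1.47, 1.26 and 1.58), and its Mips calls were lost in the fit of 36 libraries (adjusted p = 0.0179, 0.0458 and 0.0370 at stages 1, 2 and 3). Glyma.11G242100 was lower in 2mlpa than in 2MWT at stages 1 and 3 (-1.29 and -1.84 on the log2 scale) and than in 2MWT-L at stage 1 (-2.02).

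Dry-seed calls of the Mips subset lay at 0.6 to 1.2 Mb after MIPS1 as well as near it, some of them on few reads. Glyma.11G247600 (0.71 Mb) had 404, 290.3 and 226 CPM in 1mlpa, against 52.2, 39.5 and 38.7 CPM in 1MWT (log2 fold change 2.78 ± 0.30, adjusted p = 6.23e-06). In the other cross it had 106, 186 and 129 CPM in 3mlpa, against 32.1, 55.8 and 78.2 CPM in 3MWT, without overlap but short of the threshold (adjusted p = 0.0275). Glyma.11G252700 (1.05 Mb) had 0, 0.334 and 0.156 CPM in 1mlpa, against 2.70, 2.80 and 2.61 CPM in 1MWT (log2 fold change -3.89 ± 0.52, adjusted p = 4.46e-05). Glyma.11G254000 (1.13 Mb), homologous to the Arabidopsis receptor-like kinase gene AT3G23750, had 0.607, 1.14 and 0.937 CPM in 1mlpa, against 0.180, 0.261 and 0.153 CPM in 1MWT (log2 fold change 2.17 ± 0.41, adjusted p = 0.000867). Dry seeds of 1mlpa were also called different from those of 3mlpa for Glyma.11G252700 (log2 fold change -3.07) and Glyma.11G254000 (3.38). Glyma.11G246200 (0.62 Mb) was at 0 in every 1mlpa library, against 0.359, 0.130 and 0.511 CPM in 1MWT, which makes it at least 1.36-fold lower when 3 counts per library are taken as the floor (adjusted p = 0.00809, and 0.0119 with the replicate number as a block; lost in 9 of 18 fits without 1 library). At stage 2 Glyma.11G219400 (-1.92 Mb), homologous to an Arabidopsis expansin gene (AT2G37640), had 0.117, 0.0564 and 0.0645 CPM in 1mlpa, against 0.660, 1.04 and 0.628 CPM in 1MWT (adjusted p = 0.00816), and Glyma.11G221300 (-1.67 Mb) had 0.0292, 0 and 0 CPM in 1mlpa, against 0.440, 0.274 and 0.201 CPM in 1MWT (adjusted p = 0.00785). These calls, on few reads, were lost in 12 and 10 of 18 such fits. Glyma.11G235100 (-0.31 Mb) had 0.626, 0.505 and 0.698 CPM in 1mlpa, against 0.123, 0.0852 and 0.126 CPM in 1MWT at stage 3 (log2 fold change 2.39 ± 0.40, adjusted p = 0.000609).

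A list of 20 members with an Arabidopsis homolog in the study's tables of regulators and targets was read alongside. The study chose these genes partly on differences in the same samples, so their counts are not independent evidence of a difference. In the Mips subset 16 of the 20 were called, 8 higher and 8 lower in 1mlpa (13.7% of all genes were called), and in the Mips-MRP subset 6 (7.19% of all genes), of which 6 were higher and 1 lower at some stage (Glyma.11G236600 both ways). Their products are of mixed kinds. Some examples, chosen after their values were seen, lay at 1.16 and 1.20 Mb: Glyma.11G254300 (a selenium-binding protein in Arabidopsis, AT4G14030) was lower in 1mlpa at stage 1 (log2 fold change -1.83 ± 0.24, adjusted p = 3.10e-05), and so was Glyma.11G254900, whose homolog AT3G23820 is annotated as a UDP-glucuronate epimerase of pectin synthesis (log2 fold change -1.34 ± 0.32, adjusted p = 0.00544). Glyma.11G247000, homologous to a mitochondrial ribosomal protein gene (AT4G35490), had 20.4, 15.7 and 18 CPM in 1mlpa, against 42.9, 36.8 and 35.7 CPM in 1MWT in the dry seed (log2 fold change -1.13 ± 0.20, adjusted p = 0.000535).

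In the Mips-MRP subset, Glyma.11G225500 and Glyma.11G251800 were called at all 3 stages (2 of 248, beside 0.268% of all genes). Glyma.11G225500 was tested only through its counts in 3mlpa, as described below. Glyma.11G251800 (0.99 Mb) was high in 3MWT alone among the 8 lines. At stage 1 it had 0.667, 0.863 and 0.627 CPM in 3mlpa, against 23.9, 37.2 and 27 CPM in 3MWT (log2 fold change -5.31 ± 0.32, adjusted p = 3.15e-08). In 1mlpa it had 3.54, 2.74 and 1.87 CPM and in 1MWT 2.96, 1.43 and 2.86 CPM, and the 12 MRP libraries of that stage lay between 1.05 and 4.28 CPM. The pattern held at stages 2 and 3, with log2 fold changes of -3.80 ± 0.30 and -3.59 ± 0.36 for 3mlpa against 3MWT. The unequal effect was called in the interaction at stages 1 and 2 (adjusted p = 6.29e-09 and 1.06e-05). Between the normal lines, 1MWT against 3MWT gave -3.60, -3.60 and -3.71 as log2 fold changes at stages 1, 2 and 3.

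Glyma.11G225500 (-1.25 Mb), homologous to an Arabidopsis UDP-glycosyltransferase gene (AT3G55700), was near 0 in 3MWT and present in 3mlpa. In the Mips-MRP fit Glyma.11G225500 passed the filter on low counts only through 3mlpa. A difference was thus built into its being tested, and the p-values add no support to it. At stage 3 it had 1.02, 0.651 and 0.924 CPM in 3mlpa, against 0, 0.0172 and 0 CPM in 3MWT, or 106 counts over the libraries of 3mlpa and 1 count over those of 3MWT (adjusted p = 0.00116). At stages 1 and 2 3MWT was at 0, and 3mlpa was at least 11-fold and 10.6-fold higher when 3 counts per library are taken as the floor (adjusted p = 0.00209 and 0.00457), the stage 2 call being lost in 6 of 18 fits that left out 1 library. In the Mips subset both lines expressed it, with 0.760, 1.10 and 0.825 CPM in 1mlpa, against 1.49, 1.19 and 0.911 CPM in 1MWT (adjusted p = 0.79). Among the MRP lines it was found in 2mlpa (1.15, 1.26 and 0.654 CPM at stage 3) and never above 3 counts in a library of 2MWT, 2MWT-L or 2MWT-N; its mean count was too low for the MRP test. It was thus present in lines of either MIPS1 genotype.

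A similar split by line was found nearby, 1.40 Mb before MIPS1, in a gene that the tests named because it differed between the crosses at every stage. Glyma.11G224400 had 1.99, 2.84 and 2.66 CPM in 1mlpa, against 0, 0 and 0 CPM in 3mlpa at stage 3, at least 33.5-fold higher (adjusted p = 2.00e-07). The normal lines gave 2.49, 2.02 and 2.98 CPM in 1MWT, against 0, 0 and 0 CPM in 3MWT, at least 44.1-fold higher in 1MWT (adjusted p = 9.10e-08). In the joint fit Glyma.11G224400 passed the filter on low counts only through 1mlpa and 1MWT. A difference between the crosses was thus built into its being tested. It was at 0 in all 9 libraries of 3mlpa, of 3MWT, of 2mlpa and of 2MWT-L, and present in 1mlpa, 1MWT, 2MWT (2.77, 2.03 and 3.86 CPM at stage 3) and 2MWT-N (2.45, 2.98 and 3.46 CPM). Its neighbour Glyma.11G224200, at 1.42 Mb before MIPS1 and picked after its values were seen, split the 8 lines in the same way, with no library above 0.567 CPM. In all, 25 of 383 members (6.53%) had at most 3 counts in every library of 1 line and more than 3 in every library of some stage in another line, beside 4.74% of all 56044 genes.

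Glyma.11G224900 (-1.33 Mb) and Glyma.11G225000 (-1.33 Mb) had the largest stage 3 rises in 3mlpa. Glyma.11G225000 had 7.20, 1.19 and 5.02 CPM in 3mlpa, against 0, 0 and 0.0392 CPM in 3MWT, or 558 counts over the libraries of 3mlpa and 2 over those of 3MWT (adjusted p = 0.000277). Glyma.11G224900 had 4.89, 0.515 and 1.75 CPM in 3mlpa, against 0, 0 and 0 CPM in 3MWT, at least 42.1-fold higher (adjusted p = 0.00136, and 0.0202 with DESeq2, short of the threshold). In the Mips-MRP fit these genes and Glyma.11G225500 passed the filter on low counts only through 3mlpa, so a difference was built into their being tested. Replicates of 3mlpa varied widely in both, though none reached down to 3MWT. In the Mips subset the mean count of both was too low for the test. Glyma.11G225000 had 0.156, 0.785 and 2.14 CPM in 1mlpa, against 0.0154, 0 and 0.0157 CPM in 1MWT there at stage 3, or 150 counts against 2 over the libraries, and Glyma.11G224900 had 0.0894, 0.411 and 0.592 CPM in 1mlpa, against 0, 0 and 0 CPM in 1MWT, at least 6.95-fold higher. Such floors cover counting error only.

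**Figure D4:**
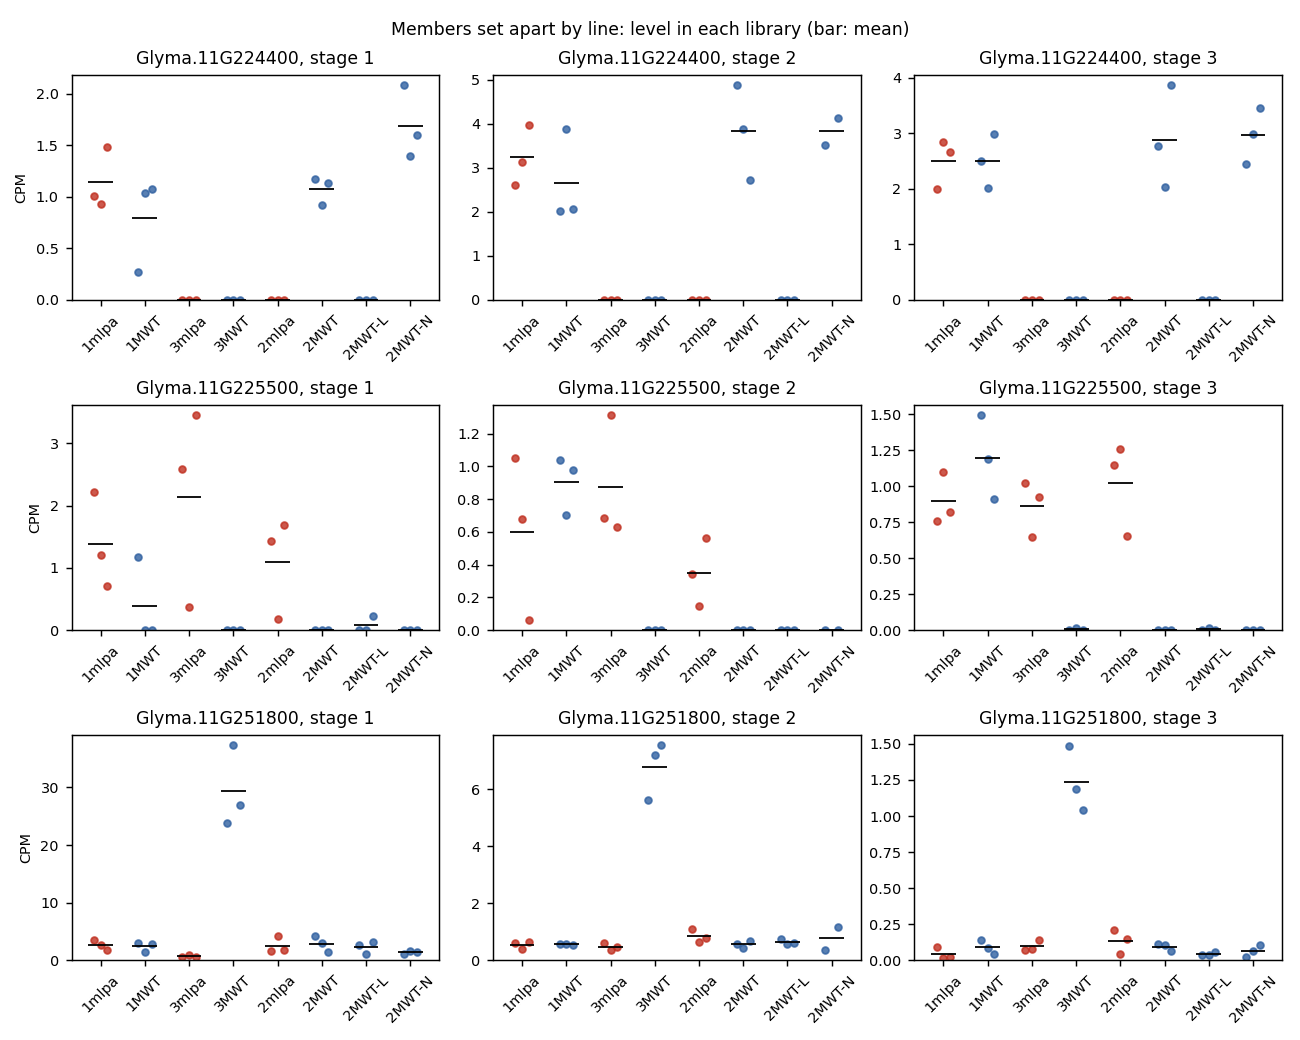
CPM (vertical axis, from 0) of Glyma.11G224400, Glyma.11G225500 and Glyma.11G251800 in the libraries of all 8 lines (horizontal axis), with a row for each gene and a column for each stage; red points are lpa lines, blue points normal lines, bars are means, and the near-empty library of 2MWT-N at stage 2 is left out. Glyma.11G224400 is at 0 in 4 lines, Glyma.11G225500 is at or near 0 in 4 lines, a different set, and Glyma.11G251800 stands out in 3MWT alone.

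Across the crosses, 18 of 251 tested members differed between 1mlpa and 3mlpa (7.17%, background 6.9%), and 13 of 251 between 1MWT and 3MWT (5.18%, background 5.98%). Within 0.5 Mb of MIPS1 the count was 4 of 74 in each comparison (5.41%). From 0.5 to 1 Mb it was 8 of 90 for the mips1 lines and 3 of 90 for the normal lines, from 1 to 1.5 Mb it was 6 of 57 in each. The effect of the line within a cross was called unequal, on the adjusted p alone, for 20 of 251 members (7.97%, background 5.59%). There were 19 such members in dry seeds (background 5.31%), 4 after imbibition (0.481%) and 1 after radicle emergence (0.266%). By distance these were 3 of 74 within 0.5 Mb, 10 of 90 at 0.5 to 1 Mb and 7 of 57 at 1 to 1.5 Mb. Counts in these comparisons depended on single dry-seed libraries. Their background was not taken in the fits that follow, so the changed counts cannot set members apart from other genes. A shift over all genes is known for the Mips-MRP subset. There 17% of all genes were called once the second 3mlpa dry-seed library was dropped, against 7.19% with every library. Without replicate 2 of 3mlpa at stage 1, 28 members separated the mips1 lines and 33 had an interaction call. Without replicate 1 of that group the counts were 10 and 10, and without replicate 3 of 1mlpa, replicate 1 of 1MWT or replicate 2 of 3MWT at stage 1 the interaction count was 9, 11 or 13.

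The MRP lines gave a contrast without mips1. Against all 3 normal lines at one stage, 3 of 245 tested members were called in 2mlpa (1.22%, background 0.756%). Single comparisons called 9 members against 2MWT (background 4.7%), 31 against 2MWT-L (13.1%) and 9 against 2MWT-N (2.87%), and 37 in any of them (15.1%, background 16%). Without the near-empty library the last count was 36 (14.7%, background 14.8%). By distance from MIPS1 the 37 were 10 of 72 within 0.5 Mb, 13 of 90 at 0.5 to 1 Mb, 13 of 55 at 1 to 1.5 Mb and 1 of 28 beyond, and the 3 calls against all normal lines were 2 of 90 at 0.5 to 1 Mb and 1 of 55 at 1 to 1.5 Mb. The 3 comparisons share the 2mlpa libraries. Of the 10 members shared by the mips1 crosses, 3 were called against at least 1 MRP normal line at some stage (Glyma.11G228900, Glyma.11G232200 and Glyma.11G236600).

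Glyma.11G228900 was higher in 2mlpa as in both mips1 lines. In the dry seed it had 19.0, 20.6 and 25.2 CPM in 2mlpa, against 9.31, 8.50 and 9.40 CPM in 2MWT, 9.32, 10.0 and 8.66 CPM in 2MWT-L and 9.35, 8.56 and 9.33 CPM in 2MWT-N. Each of the 3 normal lines lay below 2mlpa without overlap, by a log2 fold change of 1.25 ± 0.21, 1.21 ± 0.21 and 1.25 ± 0.21 (adjusted p = 0.000446, 0.000231 and 0.000321). Glyma.11G246200 was lower after imbibition, with 0.227, 1.17 and 0.496 CPM in 2mlpa, against 3.08, 4.65 and 7.60 CPM in 2MWT, 4.79, 4.62 and 6.31 CPM in 2MWT-L and 4.17 and 2.88 CPM in the 2 full libraries of 2MWT-N. Its log2 fold changes were -2.96 ± 0.45, -3.0 ± 0.45 and -2.44 ± 0.48. Glyma.11G254000, the receptor-like kinase gene above, had 6.51, 12.1 and 7.61 CPM in 2mlpa at that stage, against 30.6, 28.2 and 26.3 CPM in 2MWT, 21.8, 27.2 and 17.2 CPM in 2MWT-L and 33.4 and 28.2 CPM in 2MWT-N. Its log2 fold changes were -1.69 ± 0.31, -1.33 ± 0.31 and -1.80 ± 0.34. The near-empty library of 2MWT-N was at 0 for both genes, and all full libraries of the normal lines lay above those of 2mlpa. The stage 2 calls depend on a few libraries: leaving out replicate 1 or 3 of 2mlpa, or replicate 2 of 2MWT-N, at that stage brought the 3 calls down to 1. A fit lacking replicate 3 of the 2mlpa dry seeds gave 6. The background of these fits was not taken.

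**Figure D5:**
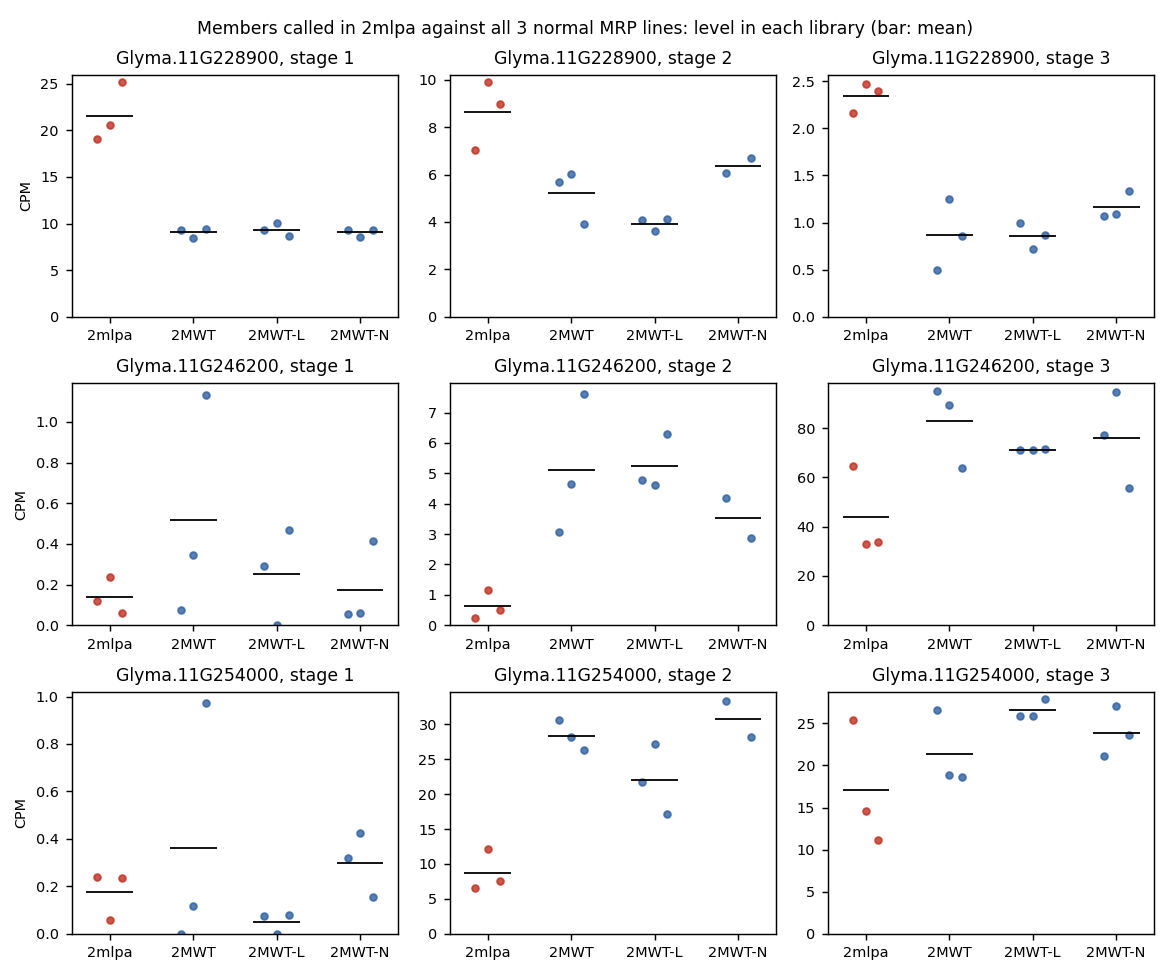
CPM (vertical axis, from 0) of the 3 members called in 2mlpa against all 3 normal MRP lines, with a row for each gene and a column for each stage; points are libraries, bars are means, and the near-empty library of 2MWT-N at stage 2 is left out. Glyma.11G228900 lies higher in 2mlpa (red) in the dry seed, and Glyma.11G246200 and Glyma.11G254000 lie lower in 2mlpa at stage 2.

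Members called in either mips1 comparison (63) stood beside the 192 that were tested and not called. Their median exonic length was 1736 bp, against 2027 bp, and their median level over 1MWT and 3MWT was 14.7 CPM, against 5.47 CPM; 30 of 63 and 88 of 192 lay on the plus strand. Of all 383 members, 37 overlap another annotated gene, where unstranded counting cannot assign reads with certainty.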

How the data were processed

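The deposited values are raw counts: per the labels and the methods of the study, the authors trimmed paired-end reads with Skewer 0.2.2, aligned them with STAR 2.5.2b to the Wm82.a2.v1 genome and counted read pairs per gene over exons with featureCounts 1.5.1, without strand. There are 2 count tables of 36 libraries, with the Mips and Mips-MRP lines in one and the MRP lines in the other, and samples were grouped by the line and stage on the labels. In R 4.3.3, edgeR 4.0.16 with TMM scaling was fitted on all libraries of each subset, on genes with a mean normalized count over 10. The quasi-likelihood test was adjusted by Benjamini-Hochberg over all genes tested. Calls needed an adjusted p under 0.01 and a log2 fold change over 1 in size, except for the interaction, which needed the adjusted p alone. The interaction and both comparisons across crosses were taken from 1 joint fit of 36 libraries. Standard errors are the fold change over the square root of F, and the fits were tested on simulated data. Each group has 3 samples, which the study gives as biological replicates. The p-values rest on a spread between replicates that is estimated over all groups of a fit and partly shared between genes. They do not measure the spread of the compared groups alone. With own libraries alone, 74 calls of named members kept the threshold and 31 lost it.

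The members and lists were chosen with earlier results of these data known. Named members are the 10 nearest to MIPS1, those called at all stages or in both crosses, those that differed between the crosses at every stage, those called against all MRP normal lines, those with the largest change and the most abundant, unless the text says that a gene was chosen after its values were seen. Alternatives were DESeq2 1.42.0, RLE size factors, no low-count filter, an FDR of 0.05, no fold threshold, own libraries per comparison, all 36 libraries in 1 fit, leaving out the near-empty library, a replicate block and leaving out each library. Of 45 same-numbered pairs, 16 had a correlation of deviations over 0.1 (range -0.41 to 0.39). All 3 pairs did so for 1mlpa with 1MWT at stage 1 (0.12 to 0.39) and for 2mlpa with 2MWT at stage 3 (0.27 to 0.35), where the numbers may pair the samples; elsewhere they were not taken as pairs. No sequence was printed, since no genome was used here.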

Additional observations from a re-analysis of the deposited data

Results flagged for a closer look

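For 5 of the named members the Mips and the Mips-MRP differences were unequal by the interaction test of edgeR, with the adjusted p over all genes. In Glyma.11G228900 at stage 3 the interaction log2 difference was -2.84 (0.19 for 1mlpa against 1MWT and 3.03 for 3mlpa against 3MWT, adjusted p = 9.52e-05). In Glyma.11G231700 at stage 1 it was -1.35 (-1.49 and -0.10, adjusted p = 0.00759), a call lost in 7 fits that left out 1 library. In Glyma.11G236600 it was 2.24 at stage 1 (1.16 and -1.05, adjusted p = 0.0016) and 2.28 at stage 2 (2.22 and -0.07, adjusted p = 0.00588), the stage 2 call being lost in 9 such fits. In Glyma.11G242200 at stage 1 it was 2.12 (3.55 and 1.47, adjusted p = 9.47e-06). The stage 1 interaction calls of Glyma.11G231700, Glyma.11G236600 and Glyma.11G242200 were lost with their own libraries alone. The widest gap was in Glyma.11G251800, with 5.47 at stage 1 (0.13 and -5.31, adjusted p = 6.29e-09) and 3.78 at stage 2 (-0.01 and -3.80, adjusted p = 1.06e-05). The causes were not tested.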

How the results depend on the processing

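The count of 44 called members in the Mips subset stayed within 1.5 times under every alternative run (35 to 63; 39 to 56 when 1 library was left out). The other counts moved more. Apart from the fits whose shares are given above, shares over all genes were not taken under the alternatives. The counts below therefore do not set members apart from other genes. In the Mips-MRP subset the 29 became 46 at an FDR of 0.05 and 44 with DESeq2, and 20 to 52 over fits without 1 library, the 52 being that without 3mlpa stage 1 replicate 2. The 3 members called in 2mlpa against all normal lines became 5 without the low-count filter, 6 at an FDR of 0.05, and 1 to 6 over fits without 1 library (6 without 2mlpa stage 1 replicate 3; 1 without 2mlpa stage 2 replicate 1 or 3, or 2MWT-N stage 2 replicate 2). The 20 interaction calls became 48 at an FDR of 0.05, 10 when each comparison was fitted on its own libraries alone and 38 with DESeq2, and 9 to 33 when 1 library was left out. The 18 members that differed between 1mlpa and 3mlpa became 32 at an FDR of 0.05 and 7 with own libraries, and 10 to 28 when 1 library was left out. The 13 that differed between 1MWT and 3MWT became 28 at an FDR of 0.05, 6 with own libraries and 22 with DESeq2, and 9 to 18 over fits without 1 library. With the replicate number as a block the 6 counts were 49, 22, 3, 17, 17 and 14 in the order above. Where all 3 pairs of a comparison deviated together (1mlpa with 1MWT at stage 1, 2mlpa with 2MWT at stage 3), the block ended 1 call of a named member, Glyma.11G246200 in 1mlpa at stage 1 (adjusted p = 0.0119), and no other. Of the named members' calls under the alternatives other than leaving out a library, 766 kept direction and threshold and 52 lost the threshold; when 1 library was left out these were 2894 and 165, and 0 reversed. The causes were not tested. How depth bears on the calls of members with few reads, such as Glyma.11G219400 and Glyma.11G221300, was not tested either.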
